A study of Homo sapiens with 16 samples.

Results

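Distal exonic H3K27ac regions are regions that changed with OGTi treatment of LX-2 cells, that lie away from the 5′ end of every gene as annotated by GENCODE, and whose center falls within an exon. They were picked from the lost and gained lists of the study by 2 criteria: no base within 2500 bp of the 5′ end of any GENCODE gene, and a center base inside an annotated exon of any transcript. Of the 7130 listed regions, 4911 met the first criterion and 273 met both, which is 3.83% of the listed regions. Among these 273 distal exonic regions, 136 were lost and 137 were gained, so that 49.8% were lost, against 49.2% of all listed regions and 56.1% of all distal ones. Of regions centered in exons, those that just missed the distance criterion lay 2422, 2456 and 2475 bp from a gene 5′ end and were all lost. Those that just met it lay 2527, 2537 and 2560 bp away and were 1 lost region (MTHFD1) and 2 gained ones (HYDIN and CDK4).

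LX-2 is a line of human hepatic stellate cells with a myofibroblastic phenotype, and all samples came from this single line. Cells received vehicle (Control) or OSMI-1, an inhibitor of O-GlcNAc transferase (OGTi), at 50 µM for 24 h, and H3K27ac was mapped by ChIP-seq in 4 Control and 4 OSMI-1 libraries. A region is called lost when its H3K27ac signal was lower after OGTi and gained when it was higher, and the question addressed by the mapping is which regulatory regions respond to inhibition of protein O-GlcNAcylation. The lists give positions on hg38 only, so the size of each change, its error and the depth behind it are unknown here, and the comparisons below count regions. In a bulk culture, fewer cells carrying the mark and less mark per cell cannot be told apart.

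Acetylation of lysine 27 of histone H3 is deposited by the p300 and CBP acetyltransferases and marks active promoters and enhancers. Enhancers are mostly found in introns and between genes, but some overlap exons, and an exon far from the first 5′ end of a gene may also be the first exon of a shorter transcript with a promoter of its own. O-GlcNAc transferase attaches a single sugar, N-acetylglucosamine, to serine and threonine residues of nuclear and cytoplasmic proteins, among them many transcriptional regulators.

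Transcript starts inside the exonic regions are shown first, because the comparison of alternative starts turned on them. An Ensembl canonical transcript is the one chosen by the annotation to represent its gene, and its 5′ end lay inside 29 gained and 7 lost exonic regions. At 4 of the gained and 2 of the lost starts, the 150 bases just before the start overlapped no annotated exon, and 3 of these gained and both lost stretches are printed in full from hg38, 5′ to 3′ on the strand of the transcript. Capitals mark CG dinucleotides, the sites of CpG methylation that are dense in CpG island promoters.
MTPAP-201 (gained, chr10:30349279-30349428, minus strand): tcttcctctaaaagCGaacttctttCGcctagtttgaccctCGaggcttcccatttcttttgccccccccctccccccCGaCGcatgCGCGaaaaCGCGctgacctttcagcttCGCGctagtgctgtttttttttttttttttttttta
SLC36A1-201 (gained, chr5:151447453-151447602, plus strand): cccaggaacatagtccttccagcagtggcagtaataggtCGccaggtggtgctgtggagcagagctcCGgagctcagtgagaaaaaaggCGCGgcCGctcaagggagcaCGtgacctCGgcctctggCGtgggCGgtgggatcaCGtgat
AMMECR1-201 (gained, chrX:110318086-110318235, minus strand): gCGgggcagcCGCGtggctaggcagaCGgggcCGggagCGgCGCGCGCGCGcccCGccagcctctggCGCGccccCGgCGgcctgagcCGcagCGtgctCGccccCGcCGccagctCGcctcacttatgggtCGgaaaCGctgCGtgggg
SLC16A3-213 (lost, chr17:82228892-82229041, plus strand): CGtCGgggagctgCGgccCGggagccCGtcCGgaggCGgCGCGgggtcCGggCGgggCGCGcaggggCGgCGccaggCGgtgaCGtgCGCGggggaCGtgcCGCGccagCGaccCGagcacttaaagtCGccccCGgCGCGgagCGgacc
CHD3-201 (lost, chr17:7888639-7888788, plus strand): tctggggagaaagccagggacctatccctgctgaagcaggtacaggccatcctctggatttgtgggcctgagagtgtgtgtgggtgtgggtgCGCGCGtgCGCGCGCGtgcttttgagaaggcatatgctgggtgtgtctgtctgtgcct
MTPAP encodes the mitochondrial poly(A) polymerase, SLC36A1 a proton-coupled amino acid transporter, SLC16A3 the lactate transporter MCT4, and CHD3 a chromatin remodeler of the NuRD complex. The stretch before the SLC16A3 start held 29 CG dinucleotides and that before the AMMECR1 start held 25, while MTPAP-201 had 11 and SLC36A1-201 had 10. The CHD3 stretch held 7, and the gained stretch that is not printed held 2. Over all 29 gained stretches the median was 11 (range 0 to 25) and over the 7 lost ones 12 (range 1 to 29), against a median of 7 in the same window of 35116 RefSeq promoters of GRCh38.p14. CG-dense starts were thus found in both directions.

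The share of distal regions that were centered in exons was compared first. Exonic regions made up 4.93% of lost distal regions (136 of 2757, 95% Wilson interval 4.19 to 5.81) and 6.36% of gained ones (137 of 2154), an odds ratio of 0.764 (two-sided Fisher's exact test, p = 0.0328). This difference lost significance under 5 other definitions, for example with a window of 5000 bp around gene 5′ ends (odds ratio 0.819, Fisher's exact p = 0.148) or when RefSeq gene 5′ ends were used beside GENCODE ones (odds ratio 0.862, Fisher's exact p = 0.318). Exonic regions were less often lost than intergenic distal regions, of which 67.1% were lost (929 of 1385, odds ratio 0.487, Benjamini-Hochberg adjusted Fisher's exact p = 1.82e-07 over 2 comparisons). This p counts neighboring regions as independent. With 1 region per run of same-direction neighbors (centers within 50 kb), the odds ratio was 0.585 (adjusted Fisher's exact p = 0.000440). Against intronic distal regions, of which 52.0% were lost (1692 of 3253), the odds ratio was 0.916 (adjusted Fisher's exact p = 0.489).

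Lost and gained exonic regions fell into the same 5 exon classes, and no class passed the test between them. The 3′ UTR was the most frequent class in both directions, with 44 of 136 lost regions (32.4%, interval 25.1 to 40.6) and 39 of 137 gained ones (28.5%). Coding sequence held 23 lost regions (16.9%) and 34 gained ones (24.8%), the 5′ UTR held 19 (14.0%) and 25 (18.2%), non-coding exons of protein-coding genes held 24 (17.6%) and 21 (15.3%), and exons of non-coding genes held 26 (19.1%) and 18 (13.1%). The odds ratios ran from 0.617 for coding sequence to 1.56 for exons of non-coding genes, and the lowest adjusted p was 0.479 (Fisher's exact test, Benjamini-Hochberg over 5 classes). Where several transcripts covered a center, coding sequence was given priority, then the 3′ UTR and the 5′ UTR.

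**Figure D1:**
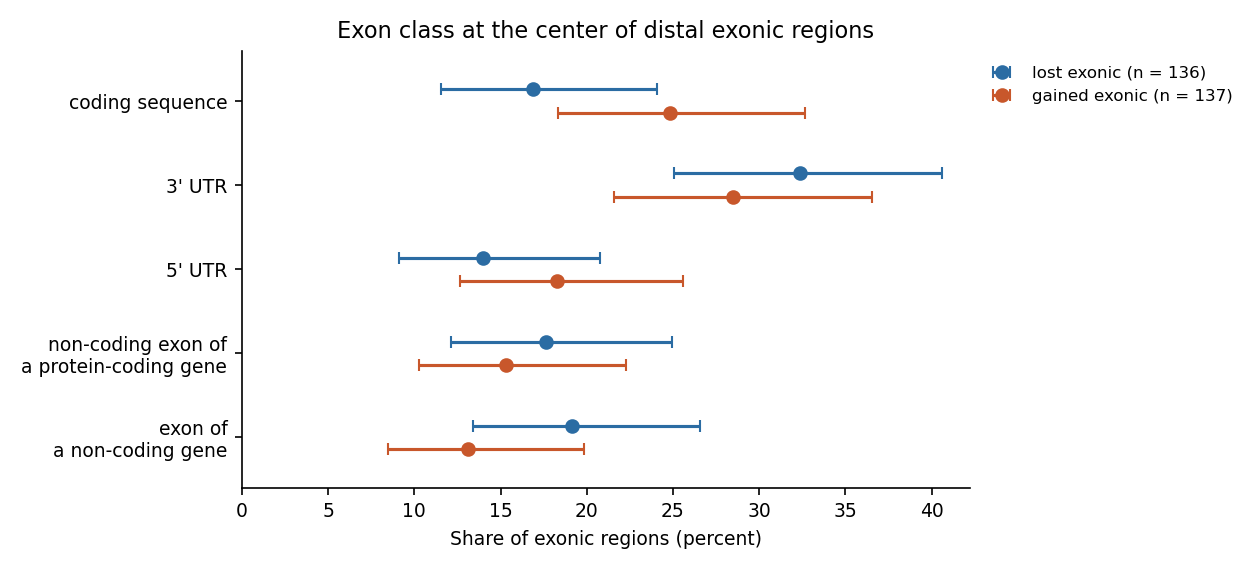
Share of lost (blue) and gained (orange) distal exonic regions in each exon class, in percent of 136 lost and 137 gained regions, with points for the share and bars for 95% Wilson intervals. The intervals overlap in every class, and the widest gap is in coding sequence (16.9% and 24.8%).

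The regions at the 3′ UTR mostly sat near the end of their genes. Position was measured along the host gene, the annotated gene whose exon covers the center, from 0% at its 5′ end to 100% at its 3′ end. The 3′ UTR regions had a median position of 96.0% when lost and 92.3% when gained, and 43 of 44 and 38 of 39 of them lay in the last exon of a transcript. The widest lost ones were a 3032 bp region at MAP7D3, a microtubule-associated protein, and a 2821 bp region at ATRNL1, a relative of attractin. The widest gained ones were 3110 bp at TADA2A, a subunit of histone acetyltransferase complexes, and 2989 bp at IL7R, the interleukin 7 receptor. Only 3 lost and 3 gained regions of this class had a transcript 5′ end inside them.

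Coding-sequence regions could hold little exon sequence around their center. The widest lost ones were 3297 bp at PLEKHO2 and 2989 bp at COL15A1, which encodes collagen XV, and only 1.81% of the bases of the COL15A1 region were exonic. The widest gained ones were 3847 bp at SLC3A2, the heavy chain shared by several amino acid transporters, and 2690 bp at TANC1, a scaffold protein. A canonical 5′ end lay inside 1 of 23 lost and 9 of 34 gained coding-sequence regions. This split by class was not tested.

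Regions in the 5′ UTR were the class with the highest share that held a transcript start. A transcript 5′ end lay inside 16 of 19 lost and 23 of 25 gained 5′ UTR regions, and a canonical one inside 5 and 18. The widest lost ones were 3371 bp at ACOT7, an acyl-CoA thioesterase, and 2722 bp at SBF2, a myotubularin-related protein. The widest gained ones were 2694 bp at CARD16, a caspase recruitment domain protein, and 2035 bp at KIFC3, a kinesin. Their CpG ratio, the observed number of CG dinucleotides over that expected from the C and G content, had a median of 0.349 in lost and 0.651 in gained 5′ UTR regions, with quartiles of 0.266 to 0.729 and 0.215 to 0.742 that overlapped over most of their range.

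Non-coding exons belonged to transcripts with no open reading frame in the annotation. In protein-coding genes, the widest lost ones were 2831 bp at PLXND1, a semaphorin receptor, and 2648 bp at COL15A1, and the widest gained ones were 2996 bp at WDR70 and 2989 bp at STK24, a serine/threonine kinase. In non-coding genes, the widest gained ones were 3013 bp at CYP2U1-AS1 and 2859 bp at HCG20, and the widest lost ones were 3212 and 3189 bp at 2 long non-coding RNA genes known by identifier only (ENSG00000259345 and ENSG00000286619). A transcript annotated as a retained intron covered the center of 35 lost (25.7%) and 34 gained (24.8%) exonic regions. Such a transcript keeps an intron that other transcripts of the gene splice out.

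The place of the exon in its transcript did not differ by test between the lists. The center lay in the first exon of a transcript in 56 lost (41.2%) and 53 gained (38.7%) regions, and in a last exon in 80 (58.8%) and 71 (51.8%). An exon of a canonical transcript covered the center in 69 (50.7%) and 71 (51.8%). Single-exon transcripts covered 8 lost (5.88%) and 2 gained (1.46%) centers, an odds ratio of 4.22 whose adjusted p was 0.241 (Fisher's exact test, Benjamini-Hochberg over 4). Each exonic region held a median of 1.00 separate block of exon bases in either direction, and 39 lost and 39 gained regions were exonic over their whole length. Exon bases made up a median of 66.4% of a lost region and 68.9% of a gained one.

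Alternative transcript starts did not differ by test between lost and gained regions when every annotated transcript was counted, and did when fewer transcript types were counted. At least 1 base lay within 2500 bp of the 5′ end of some transcript in 74 of 136 lost (54.4%, interval 46.0 to 62.5) and 76 of 137 gained regions (55.5%), with an odds ratio of 0.958 (Fisher's exact p = 0.903). A 5′ end was inside the region in 53 lost (39.0%) and 54 gained (39.4%) regions. When only transcripts of the type protein_coding were counted, within 2500 bp, the shares were 24.3% (33 lost) and 38.7% (53 gained), with an odds ratio of 0.508 (Fisher's exact p = 0.0131). For canonical transcripts, a definition chosen after seeing the data, they were 9.56% (13 lost) and 23.4% (32 gained), with an odds ratio of 0.347 (Fisher's exact p = 0.00302), and for a canonical 5′ end inside the region 5.15% (7 lost) and 21.2% (29 gained), with an odds ratio of 0.202 (Fisher's exact p = 0.000116). Intronic distal regions held a canonical 5′ end in 0.650% of lost (11 of 1692) and 2.18% of gained ones (34 of 1561), a lower level with the same direction. The level cannot be compared between the 2 kinds of region, because a start opens an exon and a region centered in that exon was sorted as exonic. In the whole series, 2757 of 3507 lost and 2154 of 3623 gained regions were distal. Gained regions thus lay near a gene 5′ end more often there too, and a link between these patterns was not tested.

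**Figure D2:**
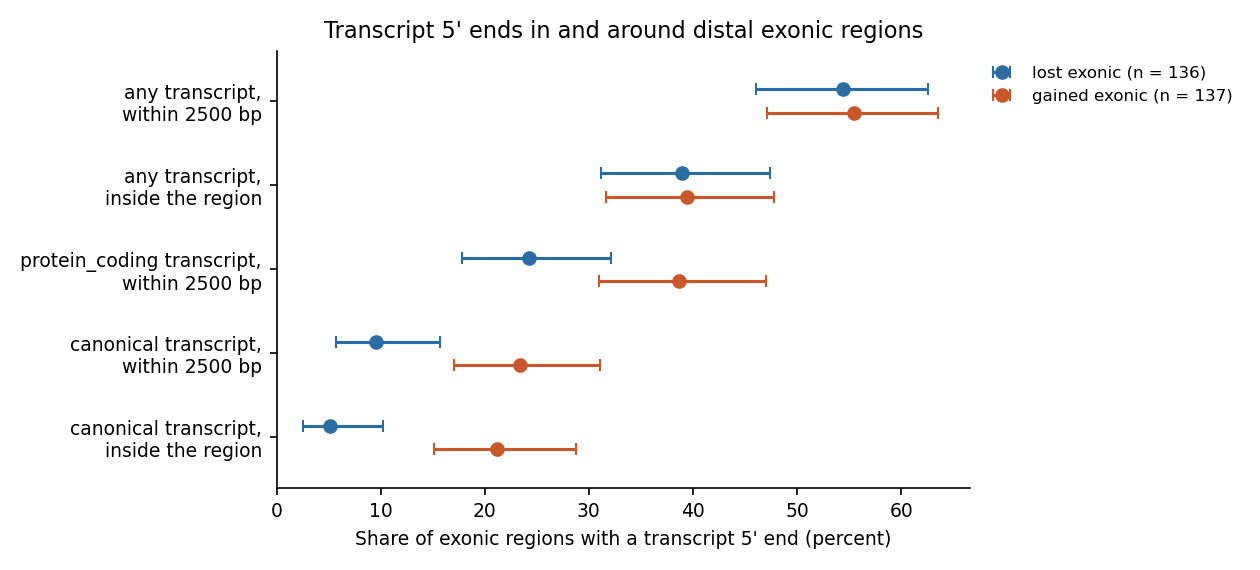
Share of lost (blue, n = 136) and gained (orange, n = 137) distal exonic regions with a transcript 5′ end, in percent with 95% Wilson intervals, from the loosest definition (any transcript, within 2500 bp) to the strictest (canonical transcript, inside the region). The first 2 rows nearly coincide, and the last row separates 5.15% of lost from 21.2% of gained regions.

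The canonical starts inside gained regions lay downstream of the annotated 5′ end of their gene, where a longer transcript begins. The distance was 7.42 kb for PARK7, a redox-sensitive chaperone, 14.1 kb for CHD2, a chromatin remodeler, 34.9 kb for UBE2D2, a ubiquitin-conjugating enzyme, and 158 kb for RBPJ, the DNA-binding factor of the Notch pathway. SRSF5, a splicing factor, had its canonical start 40.2 kb from the gene 5′ end, NR1H2, which encodes the liver X receptor beta, 46.8 kb, and CDK4, the cell cycle kinase, 3.70 kb. These regions often held many starts, with 24 at RBPJ, 27 at SLC3A2 and 16 at AP2B1, a clathrin adaptor subunit. In all, 14 gained regions and 1 lost region held 10 or more transcript 5′ ends. The lost one was at NREP, with 19 starts and a canonical start 240 kb from the gene 5′ end. These 14 and 1 are counts of annotated transcripts, which grow with how deeply a gene has been annotated.

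The other lost regions with a canonical start were at FHL2, a LIM-domain cofactor (39.5 kb), PRKCD, a protein kinase C (5.20 kb), SLC16A3 (11.1 kb), CDC25B, a cell cycle phosphatase (9.54 kb), CHD3 (3.99 kb) and TMEM40 (10.2 kb). Lost regions with starts that were not canonical included P4HA2, a collagen prolyl 4-hydroxylase, with 4 starts and a CpG ratio of 0.751, and FHL1, another LIM-domain protein, with 5 starts and a CpG ratio of 0.284. Among regions in a first exon and within 2500 bp of the start of a protein_coding transcript, the widest lost ones were at ACOT7, PLXND1, SBF2, NIN and NPLOC4, and the widest gained ones at SLC3A2, CARD16, CP, LRRFIP1 and KIFC3. NIN encodes a centrosomal protein, NPLOC4 a cofactor of the p97 ATPase, and CP ceruloplasmin, a copper-carrying ferroxidase. RefSeq placed a gene 5′ end within 2500 bp of 24 lost (17.6%) and 39 gained (28.5%) exonic regions, and these counts were not tested.

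Base composition differed between lost and gained exonic regions. Lost regions had a median GC content of 49.9% (quartiles 44.1 to 56.4) and gained ones 45.3% (quartiles 40.0 to 54.8), and 103 lost (75.7%) and 74 gained (54.0%) regions were above 44%, the median of all distal regions. The odds ratio was 2.66 (Fisher's exact test, Benjamini-Hochberg over 3 measures, adjusted p = 0.000667). Among regions with a transcript 5′ end inside, a subset added after seeing the data, the shares were 79.2% and 66.7% and the call was lost (adjusted Fisher's exact p = 0.288), while it held among those without one (73.5% and 45.8%, adjusted Fisher's exact p = 0.00138). The same direction was seen in introns, where 61.1% of lost and 35.6% of gained distal regions were above that level. Widths ran from 200 to 3371 bp with a median of 1808 bp in lost regions and from 200 to 3847 bp with a median of 1681 bp in gained ones, and their share above the distal median of 1849 bp did not differ by test (adjusted Fisher's exact p = 0.224).

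High CpG ratios were more frequent among gained than lost exonic regions. Its median was 0.214 in lost and 0.226 in gained exonic regions, and the share above the distal median of 0.189 was 59.6% and 67.2% (adjusted Fisher's exact p = 0.224). A ratio of at least 0.6, a level of CpG islands that was added after seeing the data, was reached by 10 lost (7.35%) and 26 gained (19.0%) regions, with an odds ratio of 0.339 (adjusted Fisher's exact p = 0.00999). Of the regions with a transcript 5′ end inside, 7 of 53 lost and 23 of 54 gained ones reached it. Of those without, it was reached by 3 of 83 in each direction. In introns, the shares were 0.946% of lost and 2.69% of gained regions.

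**Figure D3:**
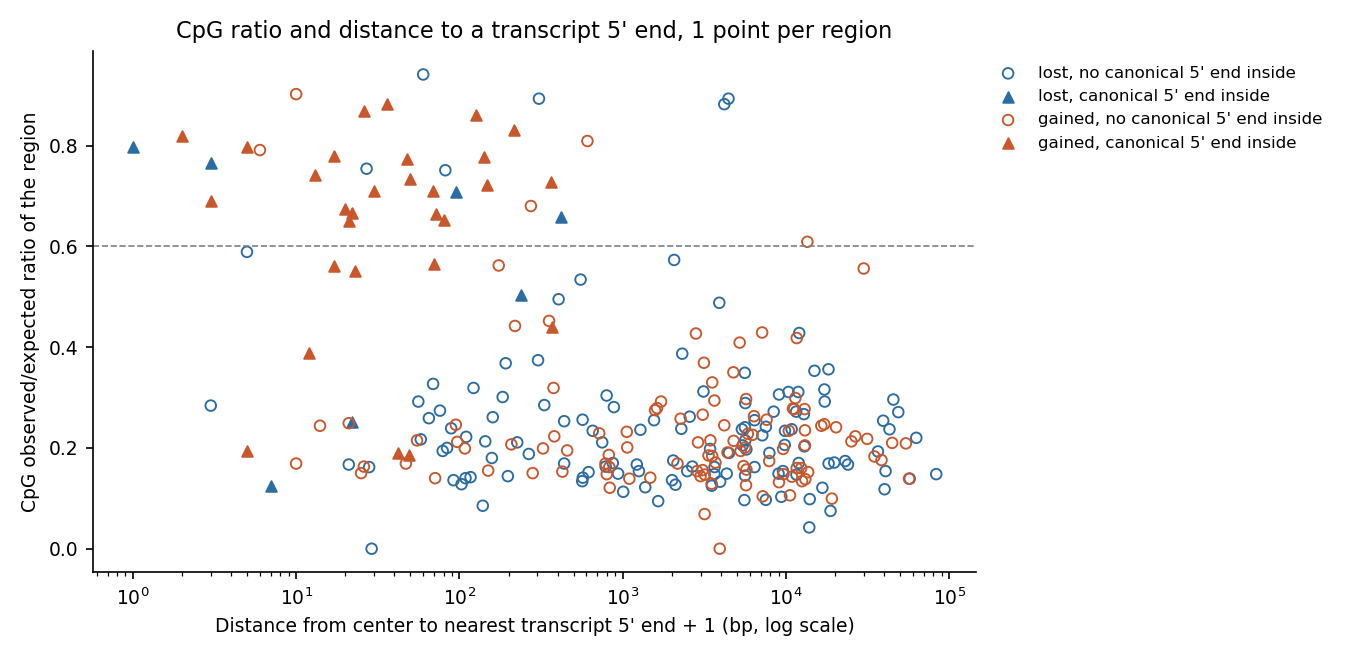
CpG observed/expected ratio of each of the 273 distal exonic regions against the distance from its center to the nearest annotated transcript 5′ end (bp plus 1, log scale), for lost (blue) and gained (orange) regions. Filled triangles mark regions with a canonical 5′ end inside, the dashed line is at 0.6, and 21 of 29 gained and 4 of 7 lost triangles are at or above it.

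Host genes numbered 126 for lost and 129 for gained exonic regions, 254 in all. A host was protein-coding for 110 lost (80.9%) and 119 gained (86.9%) regions, and longer than 100 kb for 49 (36.0%) and 53 (38.7%). The center lay in the last of 3 equal parts of the host in 84 lost (61.8%) and 70 gained (51.1%) regions, an odds ratio of 1.55 whose adjusted p was 0.219 (Fisher's exact test, Benjamini-Hochberg over 5 host features). The median position was 79.3% in lost and 67.0% in gained regions, with quartiles of 51.4 to 95 and 41.7 to 92.3. The median distance from the 5′ end of the host was 43.1 kb and 36.5 kb.

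**Figure D4:**
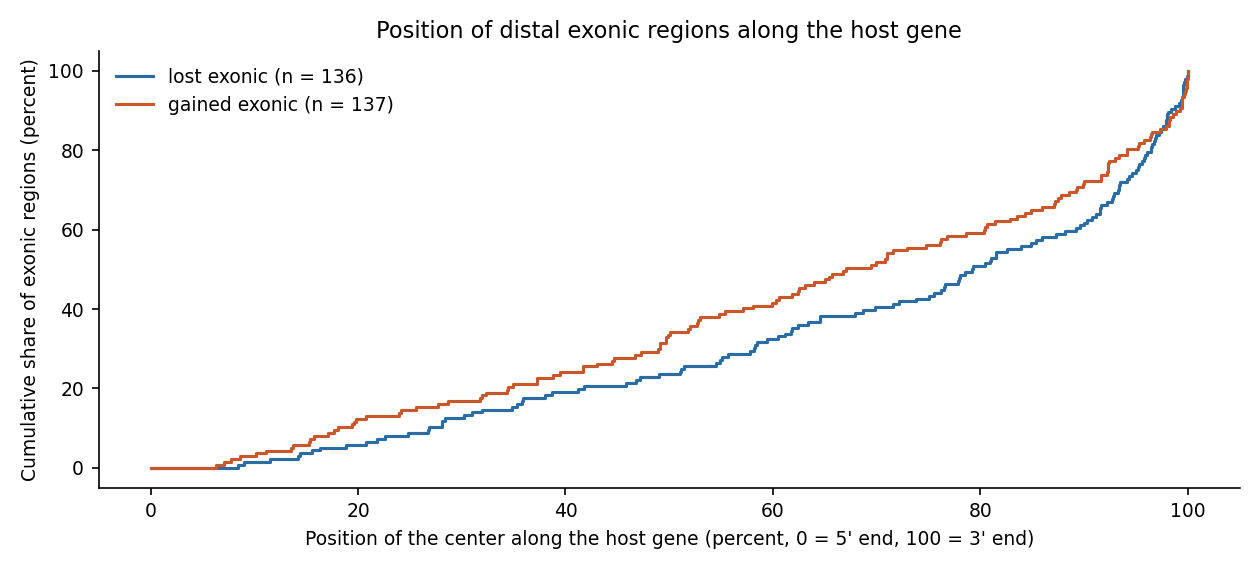
Cumulative share of lost (blue) and gained (orange) distal exonic regions, in percent, by the position of their center along the host gene, from the 5′ end (0) to the 3′ end (100). The lost curve lies lower over most of the range, with medians of 79.3% and 67.0%, and the test of the last of 3 equal parts of the gene did not pass (61.8% and 51.1%).

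Many exonic regions shared their host with other listed regions. Another listed region overlapped the host of 82 lost (60.3%) and 62 gained (45.3%) regions, with an odds ratio of 1.84 and an adjusted p of 0.0767 (Fisher's exact test, Benjamini-Hochberg over 5 host features). For lost regions the companions were lost only in 67, gained only in 8 and mixed in 7, and for gained regions they were gained only in 42, lost only in 8 and mixed in 12. The direction of companions was not tested, nor counted for intronic regions, so it cannot be called particular to exonic ones. The 5′ end of the host was within 2500 bp of another listed region for 18 lost (13.2%) and 24 gained (17.5%) exonic regions. The odds ratio was 0.718 (adjusted Fisher's exact p = 0.503, over the same 5 features). By direction, it was near a lost region for 13 lost and 3 gained exonic regions, and near a gained region for 5 lost and 21 gained ones. This split by direction was not tested, and it was not counted for intronic regions. Neighbors are not independent: 31 lost and 23 gained exonic regions abutted another region of the same direction, and 22 and 12 sat in runs of 5 or more, a run being successive listed regions of one direction with centers within 50 kb of each other.

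The hosts with the most lost exonic regions were led by PPP1R12B, which encodes a myosin phosphatase targeting subunit. Its 4 lost regions lay between 93.4% and 98.4% of the 244 kb gene, from chr1:202575709-202577424 to chr1:202587891-202589890, with 1 centered in coding sequence and 3 in the 3′ UTR. COL15A1 had 2, at 60.5% and 76.5% of a 128 kb gene, with 1 further lost region in the gene and none gained. ATRNL1 had 2 abutting regions at the end of an 856 kb gene with 7 other listed regions counted for each, all lost. ATP6V0A1, a subunit of the vacuolar proton pump, and FAIM2, an inhibitor of Fas-mediated cell death, each had 2 abutting regions in the 3′ UTR. NIN, VPS53, a subunit of a vesicle tethering complex, and DAAM2-AS1, an antisense RNA, had 2 each, and single wide regions placed ACOT7 and PLEKHO2 next. With hosts of at most 4 exonic regions, no host gene was tested on its own.

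The hosts with the most gained exonic regions were led by LINC-PINT, a long non-coding RNA gene induced by p53, with 4 regions between 51.8% and 65.4% of its 319 kb. Each of these 4 shared the gene with 22 other gained and 2 lost regions, and the 5′ end of the gene also carried a gained region. WDR70, TADA2A, HYDIN, a gene of motile cilia, ZNF774, a zinc finger gene, and NABP1, a single-strand DNA-binding protein, had 2 gained regions each. The pairs at WDR70, HYDIN and ZNF774 abutted. SLC3A2, CYP2U1-AS1, IL7R and STK24 followed with 1 wide region each. The region at IL7R was the only listed one of its direction there, and the 5′ end of that gene carried a lost region.

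FBN1, which encodes the microfibril protein fibrillin-1, was the single host with exonic regions in both directions. The lost one, chr15:48427469-48429468, was centered in coding sequence at 91.5% of the 237 kb gene, and the gained one, chr15:48471936-48473578, in a non-coding exon at 72.9%. The lost one had 3 other lost regions in the gene, and the gained one was the single gained region of the gene. A lost region lay within 2500 bp of the 5′ end of the gene. Each held 1 transcript 5′ end, neither of a protein_coding transcript. Their GC content was 39.2% and 38.6% and their CpG ratio 0.222 and 0.212, so that they resembled each other in composition.

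Matrix genes were found among both lost and gained hosts. Of 20 collagen genes chosen for the list, COL15A1 and COL4A2 were lost hosts and none was a gained host. COL9A2, a collagen gene outside this list, was also a lost host. The COL4A2 region, in the 3′ UTR of a transcript other than the canonical one at 68.7% of this type IV collagen gene, shared the gene with 8 other lost regions and no gained one. Of 34 genes of matrix glycoproteins and proteoglycans, FBN1, LAMB1, a laminin chain, and TNC, tenascin C, were lost hosts, and FBN1 was also a gained host. TNC had 3 other lost regions, and its 5′ end was within 2500 bp of a lost region. LAMB1 had 1 other lost region. Of 28 matrix-modifying enzymes and inhibitors, LOXL1, a lysyl oxidase that crosslinks elastin, and P4HA2 were lost hosts, and LOXL2, another lysyl oxidase, was among the gained hosts. LOXL1 had 4 other lost regions, while LOXL2 had 1 other gained and 4 lost regions. These counts stand beside 126 lost and 129 gained hosts in all. By distal regions of any kind centered in the gene, 5 of the listed collagen genes held a lost region and 3 a gained one. For the glycoproteins and proteoglycans the counts were 6 and 4, and for the enzymes and inhibitors 6 and 4. Over all 62700 annotated genes they were 1240 and 1210, and none of these counts was tested.

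Other gene groups had few exonic regions. Of 35 genes of the actin cytoskeleton, contraction and adhesion, DIAPH1, a formin, was a lost host and FLNA, an actin crosslinker, a gained host. Of 33 genes of the ATF4 amino acid response, SLC3A2 was a gained host and none was lost. None of 24 YAP and TEAD targets, 23 genes of PDGF and TGF-β signaling and 9 genes of O-GlcNAc cycling and the hexosamine pathway was a host. Through distal regions of any kind centered in the gene, 2 of the 24 YAP and TEAD targets had a lost region and 11 a gained one. Of all 62700 annotated genes, 1240 had such a lost region and 1210 a gained one. The 24 targets were not tested against this background. Of these targets none had a distal region centered in its own exons. By distal regions of any kind, 1 gene of the ATF4 response held a lost region and 5 a gained one. The counts were 10 and 11 for the actin list, 6 and 6 for PDGF and TGF-β signaling, and 0 and 1 for O-GlcNAc cycling. Among 248 O-GlcNAcylated regulators listed by the study for LX-2 cells, SAP30BP was a lost host, and RBPJ and LOXL2 were gained hosts. Of these regulators, 21 held a distal lost region of any kind and 27 a gained one.

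The gene signatures used by the study held hosts in both directions. The 162 genes of the fibrogenic MF-HSC signature held 6 lost hosts (COL15A1, UCK2, NREP, TNC, FHL2 and NIPAL4) and 3 gained ones (HK2, STEAP1B and LOXL2). The 129 myofibroblast identity genes held 6 lost hosts (FBN1, COL4A2, LOXL1, TNC, FHL2 and FNDC3B) and 5 gained ones, among them FBN1, NR2F2, CDC42EP3 and PTX3. Of 71 liver fibrosis matrisome genes, FBN1, COL4A2, LAMB1 and TNC were lost hosts and FBN1 a gained one, and of 61 liver fibrosis genes, COL4A2 was lost and SRGAP1 gained. Of 148 genes of heart, kidney and lung fibrosis, COL15A1 and LOXL1 were lost hosts and CP a gained one. With distal regions of any kind counted, 26 fibrogenic MF-HSC genes held a lost region and 19 a gained one. The same counts were 23 and 34 for identity genes, 10 and 5 for matrisome genes and 3 and 8 for liver fibrosis genes. They were 14 and 6 for heart, kidney and lung fibrosis, against 1240 and 1210 of all 62700 annotated genes, with no test. NR2F2, a nuclear receptor, had 5 other gained regions, and its 5′ end was within 2500 bp of a gained region. PTX3, a secreted pattern recognition protein, had 2 other gained regions. UCK2 is a uridine-cytidine kinase and HK2 a hexokinase of glycolysis, and the single region at each was the only listed one in its gene.

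Sequence motifs of transcription factors were searched on both strands of each region. The ATF4-C/EBP word TGATGCAA was the 1 motif of 6 that passed the test: it was present in 3 of 136 lost (2.21%, interval 0.753 to 6.28) and 16 of 137 gained (11.7%) exonic regions, an odds ratio of 0.171 (Fisher's exact test, Benjamini-Hochberg over 6 motifs, adjusted p = 0.0194). The shares in intronic distal regions were 4.14% and 11.7%, the same direction. The call was lost when only the central 1000 bp were searched (2 lost and 9 gained regions, adjusted Fisher's exact p = 0.180) and, in a subset added after seeing the data, among regions without a transcript 5′ end inside (3 of 83 lost and 14 of 83 gained, adjusted Fisher's exact p = 0.0522). The matches in the 3 lost regions and in 4 of the gained ones are printed with 10 flanking bases from hg38, the motif in capitals. The 4 gained ones are at hosts named by the rule for named genes, and not every match at such hosts is printed.
SRGAP1 (gained, chr12:64160886-64160913, minus strand): gtagcaacacTGATGCAAcatctccaaa
STEAP1B (gained, chr7:22663405-22663432, plus strand): cttcaacatcTGATGCAActcttagtgt
TADA2A (gained, chr17:37478412-37478439, plus strand): aggatggagaTGATGCAAcaaacctcag
TANC1 (gained, chr2:159097570-159097597, minus strand): cattataagtTGATGCAAatttaactcc
COL9A2 (lost, chr1:40313522-40313549, plus strand): atgtgagaacTGATGCAAcatagaaggc
JADE1 (lost, chr4:128872250-128872277, plus strand): cttggcttctTGATGCAAcagagatgat
KLF13 (lost, chr15:31372375-31372402, plus strand): agagagaactTGATGCAAagtccacgaa
Of the 17 gained matches, 13 lay in annotated exons, and of the 3 lost ones 2 did. The match at TANC1 fell outside exons, and those at SRGAP1 and TADA2A in a 3′ UTR. COL9A2 encodes a chain of collagen IX, JADE1 a scaffold of a histone acetyltransferase complex, and KLF13 a Krüppel-like factor. A match is a run of letters and was not tested for binding.

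The other motifs did not differ by test between lost and gained exonic regions. The TEAD words (ACATTCCA, ACATTCCT, GCATTCCA and GCATTCCT) were in 37.5% of lost and 32.1% of gained regions (adjusted p = 0.451 by Fisher's exact test), against 44.9% and 30.6% of intronic regions. Both COL15A1 regions and the COL4A2 region held a TEAD word, and the lost region at COL9A2 did not. The gained region at FBN1 held one and the gained region at LOXL2 did not. These hosts are examples: TEAD words at the other matrix hosts are not given here, and those at matrix genes were not tested apart. The AP-1 words (TGACTCA and TGAGTCA) were in 45.6% and 39.4%, the CArG box of SRF in 13.2% and 9.49%, and the RUNX word (AACCACA) in 36.8% and 27%. The SP/KLF word (GGGCGGG) was in 22.1% of lost and 24.1% of gained exonic regions, against 15.4% and 9.42% of intronic ones. In regions without a transcript 5′ end inside, the SP/KLF shares were 12% and 8.43%.

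**Figure D5:**
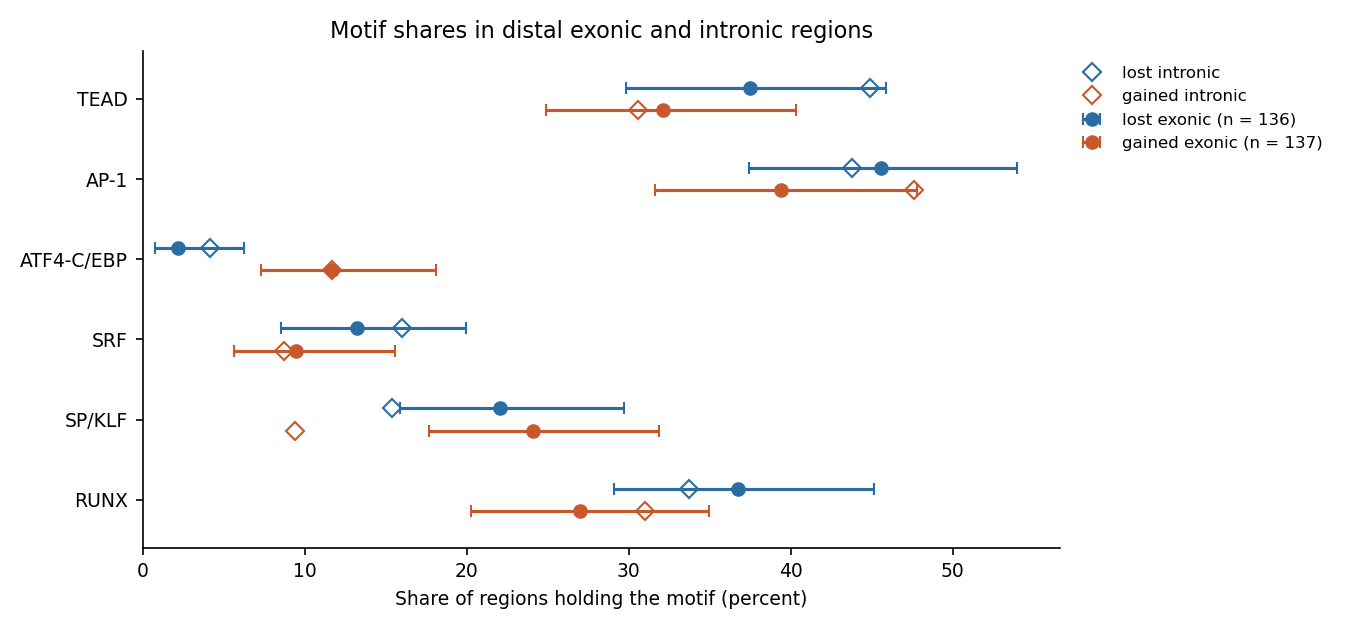
Share of regions that hold each motif, in percent, for lost (blue) and gained (orange) distal exonic regions (filled points with 95% Wilson intervals, n = 136 and n = 137) and for intronic distal regions (open diamonds). ATF4-C/EBP is the row in which the exonic regions differ (2.21% and 11.7%), and the intronic regions lie at 4.14% and 11.7%.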

How the data were processed

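H3K27ac ChIP-seq was done by the authors on 4 Control and 4 OSMI-1 libraries of LX-2 cells. Per the study's methods, reads were aligned to hg38 with Chromap, peaks were called with MACS2 and compared with MAnorm2 over all replicates. The submitters' processing notes give MACS2 2.1.1.20160309 and deepTools 2.0. The deposited lists hold positions only, in base pairs, with no score, read count or p-value, so neither depth nor its effect on a region can be given. Their names carry an adjusted p of 0.15 as threshold, while the methods text states a stricter one, and which was applied could not be checked here. Other libraries of the series (input and CoP-seq, a chromatin accessibility assay) were not used.

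Positions were compared with GENCODE release 44 on GRCh38, a later release than the one the study used. Members and gene lists were chosen with earlier results of these data known. Lost and gained regions were compared by two-sided Fisher's exact tests (SciPy 1.17.1, Python 3.11.15), 27 tests in 8 families with Benjamini-Hochberg adjustment in each, threshold 0.05. Regions are the unit and intervals (Wilson, 95%) cover the counting of regions only, not the spread between libraries. Scripts were tested on simulated data. Gene lists, 14 in all, were counted without a test. Items withheld for evaluation are not reported here. Named hosts were the 10 with the most regions per direction (ties by width), those with both directions, list members (up to 12 a list), the 2 widest regions per class and direction, and the 5 widest per direction in a first exon within 2500 bp of a protein_coding start. PARK7, CHD2, UBE2D2, RBPJ, SRSF5, NR1H2, CDK4, AP2B1, FHL1, the lost hosts with a canonical start and the hosts of printed sequences were named after their values were seen. Alternatives changed the annotation, the windows, the priority of classes and the counting of neighbors.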

Additional observations from a re-analysis of the deposited data

How the results depend on the processing

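The lists hold no value per region or per library, so a stricter threshold and leaving out replicates were not run. No paired analysis was possible because replicates have no values of their own here. Of 89 odds ratios under an alternative, 70 kept both their direction and their side of the threshold. For the share of distal regions in exons (0.764), the call was lost with exons of basic transcripts (0.765), exons of canonical transcripts (0.753), a window of 5000 bp (0.819), 5′ ends of all transcripts (0.734) and added RefSeq 5′ ends (0.862), and the cause was not tested. It kept its call with 1 region per run (0.697).

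Transcript starts passed the threshold for protein_coding transcripts (0.508), canonical transcripts within 2500 bp (0.347) and canonical 5′ ends inside (0.202), the last pair chosen after seeing the data. A CpG ratio of at least 0.6, also added later, passed (0.339). GC content fell short among regions with a transcript 5′ end inside (1.91), and ATF4-C/EBP with the central 1000 bp (0.212) and among regions without a transcript 5′ end inside (0.185). Fewer bases or regions enter these.

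Directions that turned, none past the threshold, were non-coding exons of protein-coding genes with a window of 5000 bp (0.898), first exons with basic transcripts (0.712) and AP-1 in the central 1000 bp (0.946). Among regions without a transcript 5′ end inside, the 5′ UTR (1.52), non-coding exons of protein-coding genes (0.888), exons of non-coding genes (0.920) and SP/KLF (1.49) turned. Non-coding exons of protein-coding genes gave no value with basic transcripts, which hold none, nor did single-exon transcripts there, with 1 lost and 0 gained regions. Overlapping annotation, neighbors in runs and a single cell line limit all counts.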
